A study of Mus musculus with 18 samples.

Results

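Ecm1 and 9 genes that lie within 20 Mb of it on mouse chromosome 3 are described here in kidney RNA: Flg, Acp6, Vav3, Selenbp2, Tmem144, Trim46, Glrb, Vangl1 and Rbm46. The 9 were selected on measured values, because their level differed between Ecm1 knockout (KO) and wild-type (WT) kidneys on average over 3 ages, so every KO against WT value of these 10 genes is a description and supports nothing. They are 10 of 22063 genes in the deposited table and 10 of 509 within 20 Mb of Ecm1, and all 10 were among the 14774 genes that passed the expression filter. Kidney tissue of WT mice and of Ecm1 KO mice was sequenced at 1, 2 and 4 weeks of age, with 3 libraries in each of 6 groups and 18 in all. The labels give tissue and genotype, and they name no treatment. Not given in the sources used here are the strain, the design of the KO allele, the cells that lost Ecm1, the sex and whether each library is a separate animal. A p-value below therefore measures the variation among libraries, part of which could be technical.

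ECM1 is a secreted glycoprotein that binds other proteins of the extracellular matrix. A mouse line with an altered gene also keeps a stretch of the chromosome around that gene from the animal or cells in which the change was made, and this stretch shortens only through recombination during backcrossing. Sequence variants in such a stretch are called passenger alleles, and genes within it can differ from the control strain in level, splicing or sequence. A deletion can also alter neighbouring genes directly when it removes regulatory DNA. Which of these, if any, bears on the genes below was not tested.

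The 10 genes do not form a contiguous block. In the GENCODE M21 annotation of GRCm38, Ecm1 occupies chr3:95734147-95739569 on the minus strand. Selenbp2 starts 1.03 Mb before it at chr3:94693556-94704413, Acp6 1.42 Mb after it at chr3:97158777-97177299 and Flg 2.44 Mb before it at chr3:93273523-93293686. Vangl1 (chr3:102153583-102204693) and Trim46 (chr3:89234177-89246309) lie 6.41 Mb after and 6.49 Mb before it. The farthest are Rbm46 (chr3:82837228-82876483), Vav3 (chr3:109340653-109685698), Glrb (chr3:80843599-80913660) and Tmem144 (chr3:79812564-79852773), 12.9, 13.6, 14.8 and 15.9 Mb away. Of the 10, Trim46 overlaps another protein-coding gene, Krtcap2, on the opposite strand. No source used here states a stranded protocol, so reads of the 2 genes in the shared bases cannot be told apart.

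Sequences of 2 kinds bear on what follows. The coding sequences of Selenbp2 and Selenbp1 are nearly identical: over 1416 aligned coding bases of the transcripts Selenbp2-201 and Selenbp1-201 they differ at 18 bases (98.7% identity), the longest identical run is 193 bases, and 23.8% of 100-base stretches of Selenbp2 are also in Selenbp1. The first 120 coding bases are printed 5′ to 3′ from GENCODE M21, with the bases that differ in capitals.
Selenbp2: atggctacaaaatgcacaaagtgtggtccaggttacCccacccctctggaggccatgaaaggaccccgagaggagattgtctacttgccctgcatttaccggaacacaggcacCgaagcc
Selenbp1: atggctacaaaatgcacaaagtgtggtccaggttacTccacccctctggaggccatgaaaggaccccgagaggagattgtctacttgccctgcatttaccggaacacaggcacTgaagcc
The others are the 250 bases before the start of Ecm1, Selenbp2 and Flg, shown because these 3 of the 4 genes within 5 Mb share the letters TATAAA before their start. They are given on each gene's own strand from RefSeq (GRCm38.p6) with the letters TATAAA, or their reverse complement, in capitals. They cover chr3:95739570-95739819, chr3:94693323-94693572 and chr3:93273296-93273545.
Ecm1: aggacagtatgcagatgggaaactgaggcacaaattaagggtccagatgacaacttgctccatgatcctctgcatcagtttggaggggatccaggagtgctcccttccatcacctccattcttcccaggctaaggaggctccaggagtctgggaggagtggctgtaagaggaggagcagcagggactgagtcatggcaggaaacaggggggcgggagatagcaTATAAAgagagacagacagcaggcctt
Selenbp2: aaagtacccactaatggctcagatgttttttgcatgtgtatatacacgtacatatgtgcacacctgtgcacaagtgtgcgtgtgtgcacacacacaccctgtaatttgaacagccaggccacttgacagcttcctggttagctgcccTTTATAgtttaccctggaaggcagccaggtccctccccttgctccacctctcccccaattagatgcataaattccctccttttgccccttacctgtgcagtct
Flg: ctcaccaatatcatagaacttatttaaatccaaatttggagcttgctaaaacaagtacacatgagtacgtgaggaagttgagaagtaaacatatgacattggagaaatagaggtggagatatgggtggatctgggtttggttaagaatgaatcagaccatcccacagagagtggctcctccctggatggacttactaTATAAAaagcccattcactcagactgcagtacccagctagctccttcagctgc
RefSeq promoters were matched for 9 of the 10 genes, and Vangl1 had no entry. In windows from 250 bases before to 50 after the start, TATAAA stood on either strand in 3 of the 9 (Ecm1, Flg and, as its reverse complement, Selenbp2), against 13.6% of 32851 promoters of the same length. The same windows held 2 CpG sites in each of these 3 genes, 3 in Tmem144, 13 in Trim46, 19 in Acp6, 25 in Rbm46, 30 in Glrb and 33 in Vav3, against a median of 7 over all promoters. The 9 windows thus spanned CpG-poor and CpG-rich starts, and a match of letters describes the window and shows no site of binding.

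Total counts per library ran from 14930565 to 21427764. Levels are counts scaled to library size (CPM) after TMM scaling, listed for replicates 1, 2 and 3 in that order, and fold changes are log2 values ± SE. The summed level of 4 proximal tubule markers was between 2797 and 11050 CPM, so these markers were present in every library. At 4 weeks it was 10416 to 11050 in WT and 7410 to 9532 in KO, without overlap. Y-linked genes marked 1 of 3 WT and 0 of 3 KO libraries as male at 1 week, 2 and 3 at 2 weeks, and 3 and 2 at 4 weeks, so sex was uneven between the genotypes. WT replicate 3 of 1 week carried a summed 232 CPM of 4 adrenal cortex markers against at most 9.73 elsewhere. It also carried 787 CPM of 4 hepatocyte markers, against at most 561 elsewhere. Without it, Ecm1 and Flg were still the 2 of the 10 genes called in the average over ages. At 4 weeks the summed level of 4 podocyte markers was 958 to 1019 CPM in KO and 577 to 735 in WT. The sum of 4 T and B cell markers, at most 2.34 CPM, was lower in KO than in WT at each age without overlap. Of these 4, only Cd79a passed the expression filter, and it was not called at any age. By edgeR 0 of the 4 proximal tubule markers and 2 of the 4 podocyte markers were called at 4 weeks. Over all single genes, KO and WT were apart for 9.35% at 1 week, 5.10% at 2 weeks and 20.9% at 4 weeks. The part of these markers in the values below was not tested. In bulk tissue, fewer cells of a type and less RNA per cell cannot be told apart.

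Ecm1 was nearly absent from KO kidneys. The WT libraries held 42.3, 38.4 and 43.6 CPM at 1 week. They held 38.7, 51.7 and 54.7 at 2 weeks and 53.8, 46.3 and 27.3 at 4 weeks. The KO libraries held 2, 0 and 0 Ecm1 counts at 1 week, 0, 0 and 1 at 2 weeks, and 1, 1 and 2 at 4 weeks. Together the 9 held 7 counts against 7425 in WT, which is 0.0940% of WT after scaling (95% exact interval 0.0378 to 0.194, counting error only). WT replicate 3 of 4 weeks was the lowest WT library, and every KO library lay below every WT library. By FPKM, which is per length, Ecm1 had the highest median of the 10 genes in WT (34.1, range 14.3 to 43.6 over 9 libraries). It was followed by Acp6 at a median of 17.985, Vangl1 at 12.7, Vav3 at 11.5, Selenbp2 at 7.76 and Tmem144 at 6.23. Glrb (1.15), Trim46 (0.777), Flg (0.536) and Rbm46 (0.528) followed, and the ranges over the 9 WT libraries of neighbours in this order overlapped, except between Tmem144 (4.28 to 11.8) and Glrb (0.0880 to 3.09). Ecm1 did not pass the edgeR quasi-likelihood test for either age step in WT (1 to 2 weeks 0.22 ± 0.22, adjusted p = 0.502; 2 to 4 weeks -0.19 ± 0.22, adjusted p = 0.509, Benjamini-Hochberg over all genes). With library totals alone in place of TMM, the second step was called at -0.67, and limma on log2(FPKM + 1) called it too.

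**Figure D1:**
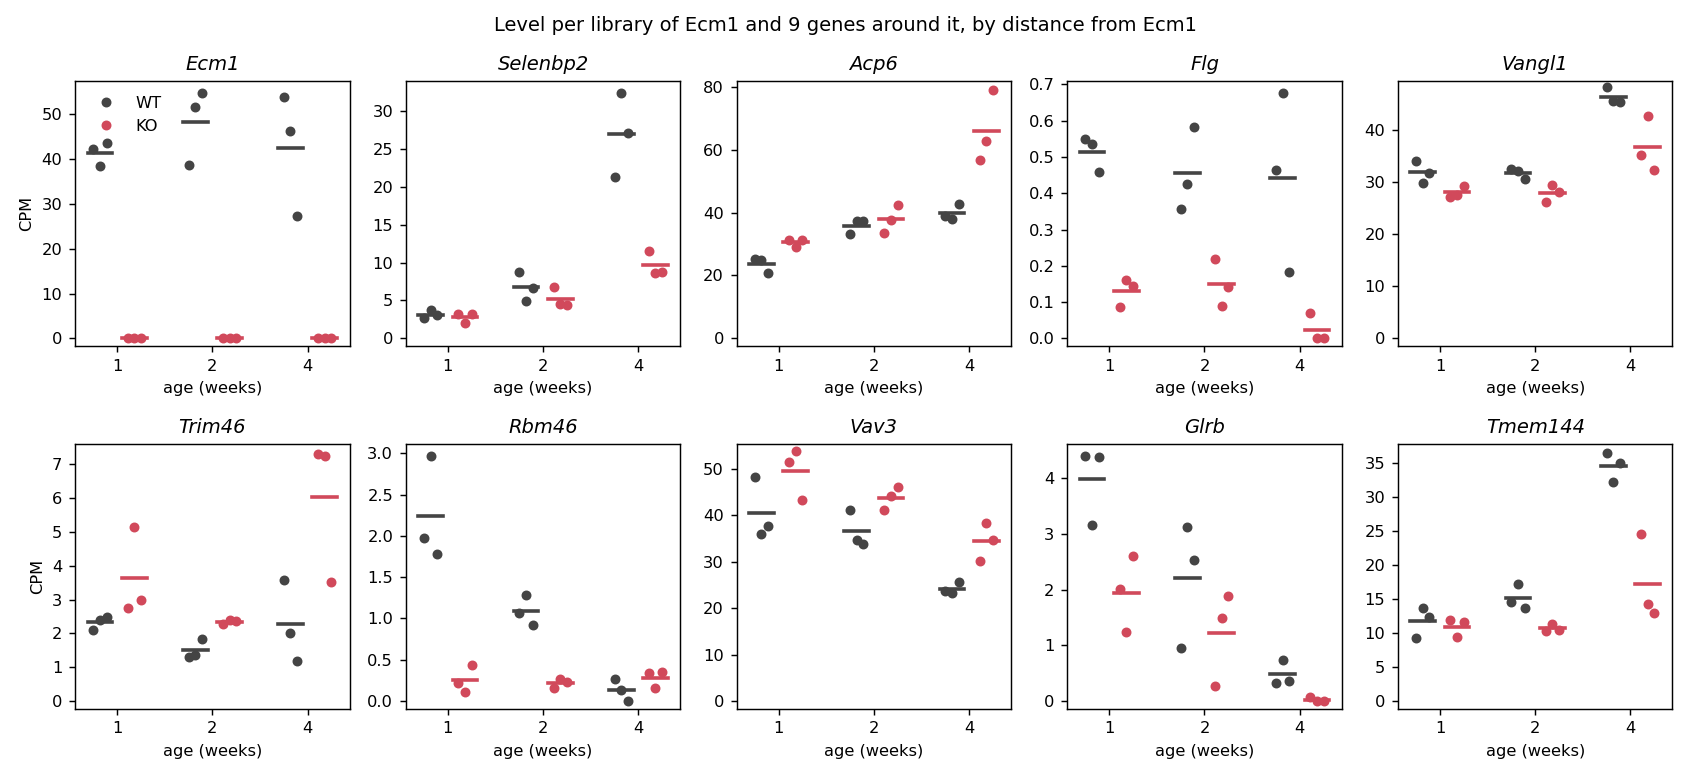
Level in CPM (linear axes from 0) of Ecm1 and the 9 chosen genes in each of the 18 libraries by age in weeks, with WT in grey and KO in red, points for libraries and bars for the mean of 3. Ecm1 is near 0 in KO at each age, from 2 to 4 weeks Rbm46 falls in WT and Glrb in both genotypes, and Selenbp2 and Tmem144 separate the genotypes most clearly at 4 weeks.

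Flg encodes filaggrin, a protein of the epidermal barrier that aggregates keratin filaments, and its level in kidney was low. At 1 week it stood at 0.550, 0.535 and 0.459 CPM in WT and 0.0876, 0.161 and 0.144 in KO. The 2-week libraries held 0.355, 0.426 and 0.583 in WT and 0.218, 0.0902 and 0.142 in KO. At 4 weeks the values were 0.465, 0.676 and 0.182 in WT and 0.0689, 0 and 0 in KO. The genotypes did not overlap at any of the 3 ages, although the lowest WT library, replicate 3 of 4 weeks, lay below the highest KO library of 2 weeks. In counts, KO held 18 reads and WT 80, or 22.4% of WT (95% exact interval 12.7 to 37.7), and at 4 weeks 1 read against 19, or 5.18% (0.125 to 32.6). With no more than 14 reads in a library, these are values of single reads. No KO library held more than 4, so Flg passed the expression filter through WT libraries, which favours KO below WT. Flg passed no age step in WT (adjusted p = 0.847 and 0.991, edgeR) or in KO (0.882 and 0.0767). In some alternatives the KO step from 2 to 4 weeks was called as a fall. These were library totals alone (-2.62), limma on log2(FPKM + 0.1) and the fit without KO replicate 1 of 4 weeks. The summed level of 7 keratinocyte markers lay between 2.29 and 10.5 CPM and overlapped between the genotypes at each age, with Dsg3, a desmosomal cadherin of keratinocytes, at 0 in all 18 libraries. The neighbouring gene Hrnr, which encodes a related barrier protein, had an average difference of -1.31 ± 0.39 between KO and WT. Of 16 other tested genes of the epidermal differentiation complex and the S100 family, which share this stretch of chromosome 3, 1 was called higher in KO at 4 weeks (S100a4, 1.99 ± 0.38) and 1 lower (Tchh, -0.96 ± 0.25), where 3.23% of all genes were called in either direction, with a median of 0.16 against 0.0017 for all genes.

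Selenbp2 encodes a selenium-binding protein close in sequence to Selenbp1, which acts as a methanethiol oxidase. Its level was 2.66, 3.70 and 3.06 CPM in WT and 3.20, 1.98 and 3.22 in KO at 1 week. At 2 weeks it was 8.71, 4.98 and 6.66 in WT and 6.76, 4.56 and 4.404 in KO. By 4 weeks it stood at 21.3, 32.4 and 27.1 in WT and 11.5, 8.67 and 8.80 in KO. The genotypes overlapped at 1 and 2 weeks and were apart at 4 weeks, where KO lay at 36.1% of WT in counts. By FPKM the 4-week means were 9.14 in KO and 13.9 in WT, so the size of this gap depends on the measure. Limma on either log2 FPKM scale gave no unadjusted p under 0.05 for it at 4 weeks or in the average over ages. Selenbp2 rose with age in WT, by 1.11 ± 0.26 from 1 to 2 weeks (adjusted p = 0.00552, edgeR quasi-likelihood, Benjamini-Hochberg) and by 1.99 ± 0.25 from 2 to 4 weeks (adjusted p = 1.11e-05). In KO it rose by 0.89 ± 0.26 (adjusted p = 0.0241) and by 0.89 ± 0.25 (adjusted p = 0.0113). Selenbp1 rose at each step too, by 1.304 ± 0.21 and 1.25 ± 0.21 in WT and by 1.13 ± 0.21 and 1.24 ± 0.21 in KO, and its average genotype difference was -0.14 ± 0.12. The first WT step of Selenbp2 was not called by limma on log2(FPKM + 1) (0.68, adjusted p = 0.0608) or log2(FPKM + 0.1) (adjusted p = 0.0624). The first KO step was not called without KO replicate 2 of 1 week (adjusted p = 0.110), without KO replicate 1 of 2 weeks (0.108), with sex as a covariate (0.107) or with library totals alone (0.0509). The second was not called without KO replicate 3 of 2 weeks (0.0535), without KO replicate 1 of 4 weeks (0.0559), with library totals alone (0.0702) or by limma on log2(FPKM + 1) (0.136).

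The Selenbp2 counts include reads divided with Selenbp1. Selenbp2 was the 1 gene of the 10 with fractional counts, in 17 of 18 libraries, and in all 18 libraries the deposited counts of Selenbp2 and Selenbp1 added up to a whole number within 0.01. Selenbp2 took 3.45%, 5.21% and 4.13% of this sum in WT at 4 weeks and 2.05%, 1.498% and 1.89% in KO, without overlap. At 2 weeks the shares were 2.44%, 2.21% and 3.32% in WT and 2.32%, 2.07% and 2.58% in KO, which overlapped. The length implied by count, FPKM and library total also moved for Selenbp2: it was between 1377 and 1590 bases in the 3 WT libraries of 4 weeks and between 766 and 903 in the 3 KO libraries. At 1 week it ran from 879 to 1077 in WT and from 996 to 1269 in KO, and at 2 weeks from 813 to 1434 and from 808 to 929. The implied length of Selenbp1 stayed at 1712 bases and that of Acp6 at 1754 in all 18 libraries. WT and KO thus differed at 4 weeks in the implied length of Selenbp2 as well as in its level, and what set that length was not tested. These lengths come from the same libraries as the selection and carry no test.

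**Figure D2:**
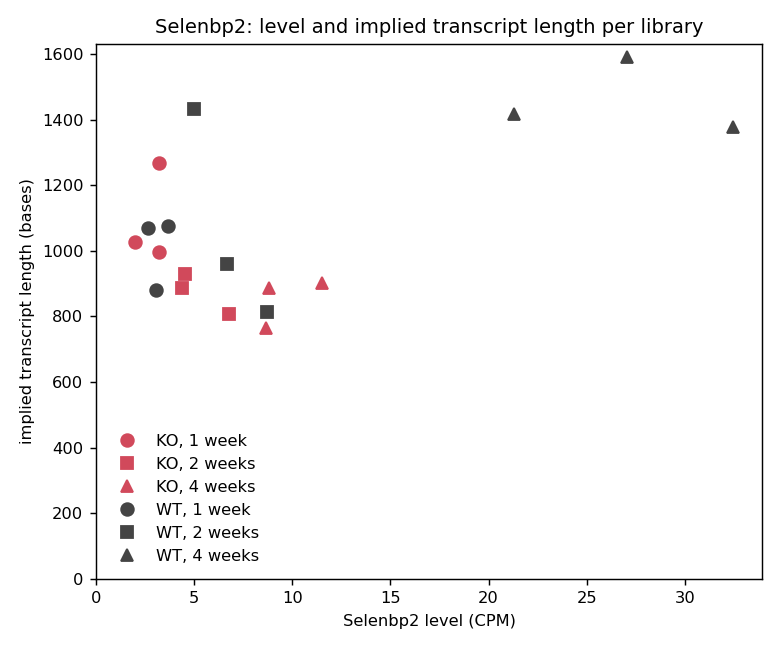
Selenbp2 level (CPM, x axis) against the transcript length implied by the deposited count and FPKM (bases, y axis) in each of the 18 libraries, WT in grey and KO in red, with a marker shape for each age. The 3 WT libraries of 4 weeks combine the highest levels (21.3 to 32.4 CPM) with lengths of 1377 to 1590 bases, whereas the 3 KO libraries of 4 weeks lie at 766 to 903.

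Acp6 encodes a mitochondrial phosphatase that acts on lysophosphatidic acid, and it was higher in KO. The 1-week libraries held 25.3, 24.9 and 20.9 CPM in WT and 31.3, 28.9 and 31.3 in KO. At 2 weeks the levels were 33.1, 37.2 and 37.2 in WT and 33.6, 37.5 and 42.3 in KO. The 4-week libraries held 39.0, 38.03 and 42.8 in WT and 56.6, 62.7 and 78.9 in KO. KO lay above WT at 1 and 4 weeks and overlapped it at 2 weeks. In WT the level rose by 0.60 ± 0.12 from 1 to 2 weeks (adjusted p = 0.00274, edgeR) and was not called from 2 to 4 weeks (0.15 ± 0.12, adjusted p = 0.320). In KO the first step was not called (0.31 ± 0.12, adjusted p = 0.0885) and the second was a rise of 0.80 ± 0.12 (adjusted p = 0.000134). The interaction of genotype and age was not called for Acp6 (adjusted p = 0.346, edgeR), so the steps are not said to differ between genotypes. The WT rise was not called by limma on log2(FPKM + 1) (adjusted p = 0.0942) or with library totals alone (0.0934). Of 10 other tested genes of lysophosphatidic acid production, breakdown and signalling, 3 rose and 4 fell in WT from 2 to 4 weeks, a step in which 23.5% of all genes rose and 24.8% fell. They included Enpp2, which makes lysophosphatidic acid and rose by 0.83 ± 0.21, and the receptor Lpar1, which fell (-1.23 ± 0.31).

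Trim46 encodes a microtubule-associated protein that bundles microtubules in the proximal axon, and Vangl1 a membrane protein of the planar cell polarity pathway, which aligns cells within the plane of an epithelium. At 1 week Trim46 stood at 2.11, 2.38 and 2.50 CPM in WT and 2.76, 5.14 and 2.98 in KO. The 2-week values were 1.303, 1.37 and 1.83 in WT and 2.29, 2.39 and 2.37 in KO. The 4-week values were 3.59, 2.03 and 1.18 in WT and 7.30, 7.24 and 3.53 in KO. KO lay above WT at 1 and 2 weeks, and at 4 weeks the lowest KO library overlapped the highest WT library. Trim46 rose in KO from 2 to 4 weeks (1.35 ± 0.36, adjusted p = 0.00732) and passed no other age step by edgeR. Krtcap2, which shares bases with it and encodes a subunit of the oligosaccharyltransferase complex, had no genotype overlap within any age and an average difference of 0.20 ± 0.059, smaller than that of Trim46 (0.89 ± 0.21). Among the 4 other tested genes of the Trim46 subfamily, 1 was called in WT from 2 to 4 weeks, against 23.5% of all genes rising and 24.8% falling. This was Trim36, which fell in WT (-1.36 ± 0.19) and in KO (-0.96 ± 0.19).

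Vangl1 was lower in KO at each age by a small amount. It measured 34.1, 29.9 and 31.8 CPM in WT and 27.2, 27.6 and 29.3 in KO at 1 week. The levels at 2 weeks were 32.5, 32.2 and 30.6 in WT and 26.2, 29.6 and 28.2 in KO. At 4 weeks they were 48.3, 45.6 and 45.3 in WT and 35.1, 42.6 and 32.4 in KO. In CPM the genotypes did not overlap at any age, and in counts the KO level was 87.6%, 88.7% and 78.3% of WT. By FPKM they overlapped at 4 weeks, with 10.7 to 15.9 in WT and 9.88 to 14.3 in KO. Limma on either log2 FPKM scale gave no unadjusted p under 0.05 for Vangl1 at 4 weeks, so this gap depends on the measure. With TMM scaling Vangl1 rose from 2 to 4 weeks in WT (0.55 ± 0.099, adjusted p = 0.000315) and in KO (0.39 ± 0.099, adjusted p = 0.00589), but with library totals alone the steps were 0.07 and 0.0094 and were not called, and limma on log2(FPKM + 1) gave -0.035 in WT and 0.09 in KO. This age change therefore depends on the scaling. Its paralog Vangl2 fell at both steps in WT (-0.95 ± 0.17 and -2.39 ± 0.20) and in KO (-0.89 ± 0.17 and -1.97 ± 0.19). Of the 13 tested genes of planar cell polarity other than Vangl1, Vangl2 included, 1 rose and 11 fell in WT from 2 to 4 weeks, against 23.5% of all genes rising and 24.8% falling. Ptk7, a receptor-like protein of the pathway, was among those that fell (-2.72 ± 0.21).

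Rbm46 encodes a germ-cell protein that binds RNA and works with MEIOC and YTHDC2 as germ cells enter meiosis. At 1 week it stood at 1.97, 2.97 and 1.78 CPM in WT and 0.219, 0.107 and 0.433 in KO. At 2 weeks it was 1.07, 1.28 and 0.915 in WT and 0.164, 0.271 and 0.237 in KO. By 4 weeks the levels were 0.266, 0.135 and 0 in WT and 0.345, 0.159 and 0.346 in KO. KO lay below WT at 1 and 2 weeks and overlapped it at 4 weeks. In counts KO held 16 reads against 139 at 1 week (11.5%, 95% exact interval 6.37 to 19.3), 14 against 67 at 2 weeks (21.03%, 10.9 to 37.8) and 12 against 6 at 4 weeks (197%, 68.4 to 639). In WT Rbm46 fell by 2.86 on the log2 scale from 2 to 4 weeks (SE 0.60, adjusted p = 0.00108, edgeR), while in KO neither step was called (adjusted p = 0.873 and 0.698). Rbm46 passed the expression filter through younger WT libraries, while no KO library held more than 9 reads. The filter thus favours a fall to 4 weeks in WT and a KO level below WT. It also leaves little room for a fall in KO. With library totals alone the WT step from 1 to 2 weeks was called as well, at -1.27 (adjusted p = 0.0448). The summed level of 4 germ cell markers ran from 0.394 to 3.99 CPM and overlapped between the genotypes at 1 and 2 weeks, with Mael at 0 in 5 of the 6 groups. At 4 weeks, where Rbm46 overlapped, the sum was 2.63 to 3.99 in WT and 2.07 to 2.43 in KO, without overlap. At that age 20.9% of all single genes were apart. Of the 4 markers only Sycp3 passed the filter, and it was not called between KO and WT. Ythdc2 was not called by edgeR in any contrast, with an average of -0.16 ± 0.088, and Meioc did not pass the filter.

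Glrb encodes the beta subunit of the glycine receptor, which anchors the receptor to the scaffold protein gephyrin at synapses. Its 1-week level was 4.398, 3.16 and 4.38 CPM in WT and 2.02, 1.23 and 2.60 in KO. At 2 weeks it was 0.948, 3.13 and 2.54 in WT and 0.273, 1.49 and 1.89 in KO. At 4 weeks it was 0.332, 0.743 and 0.363 in WT and 0.0689, 0 and 0 in KO. KO lay below WT at 1 and 4 weeks, and at 2 weeks the genotypes overlapped, with replicate 1 the lowest library of both. In counts, KO held 49.6% of WT at 1 week and 54.9% at 2 weeks, and 1 read against 20 at 4 weeks (4.92%, 95% exact interval 0.119 to 30.8). Glrb fell from 2 to 4 weeks in WT by 2.18 on the log2 scale (SE 0.62, adjusted p = 0.00868, edgeR) and in KO (adjusted p = 0.000850), where 78 reads at 2 weeks stood against 1 at 4 weeks. Glrb passed the expression filter through younger libraries, which favours such a fall. The summed level of 4 neuronal markers lay between 0.451 and 4.996 CPM. It was higher at 4 weeks than at 2 weeks in both genotypes, opposite to Glrb. The gephyrin gene Gphn rose from 2 to 4 weeks (1.14 ± 0.14 in WT and 0.86 ± 0.14 in KO). Gria2, a glutamate receptor subunit gene next to Glrb, had an average KO minus WT difference of -1.58 ± 0.41.

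Vav3 encodes a guanine nucleotide exchange factor, and Tmem144 a membrane protein that spans the bilayer several times. Vav3 stood at 48.2, 35.9 and 37.7 CPM in WT and 51.4, 53.9 and 43.3 in KO at 1 week. The corresponding levels at 2 weeks were 41.1, 34.7 and 33.9 in WT and 41.2, 44.3 and 46.0 in KO. Those at 4 weeks were 23.8, 23.2 and 25.6 in WT and 30.1, 38.3 and 34.8 in KO. KO lay above WT at 2 and 4 weeks and overlapped it at 1 week. Vav3 fell from 2 to 4 weeks in WT by 0.60 on the log2 scale (SE 0.13, adjusted p = 0.00139, edgeR) and in KO by 0.35 (SE 0.13, adjusted p = 0.0417). With library totals alone the WT step from 1 to 2 weeks was called too, at -0.40 (adjusted p = 0.0446). The KO call rested on single libraries: it was not made without KO replicate 2 (adjusted p = 0.0812) or 3 (0.114) of 2 weeks, without KO replicate 1 (0.167) or 3 (0.0757) of 4 weeks, or without WT replicate 1 of 4 weeks (0.0503). Of its paralogs, Vav1 and Vav2 were not called by edgeR in any contrast, with averages of -0.17 ± 0.24 and -0.081 ± 0.098.

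Tmem144 held 9.35, 13.7 and 12.3 CPM in WT and 11.9, 9.37 and 11.6 in KO at 1 week, with overlap. At 2 weeks the levels were 14.6, 17.2 and 13.6 in WT and 10.4, 11.3 and 10.5 in KO. At 4 weeks they were 36.5, 32.3 and 35.0 in WT and 24.6, 14.3 and 12.96 in KO. The genotypes were apart at 2 and 4 weeks, and KO replicate 1 of 4 weeks lay between WT and the other KO libraries. Tmem144 rose from 2 to 4 weeks in WT (1.19 ± 0.20, adjusted p = 0.000174) and in KO (0.69 ± 0.20, adjusted p = 0.0145). Without KO replicate 1 of 4 weeks the KO step was 0.35 and not called (adjusted p = 0.129), and it was also not called with library totals alone (adjusted p = 0.211) or by limma on log2(FPKM + 1) (0.225).

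Side by side, the genotype values of the 10 genes went both ways. On average over the 3 ages KO minus WT was -9.93 ± 0.26 for Ecm1, -2.48 ± 0.38 for Flg, -1.96 ± 0.47 for Glrb and -1.46 ± 0.36 for Rbm46. It was -0.67 ± 0.15 for Selenbp2, -0.53 ± 0.12 for Tmem144 and -0.24 ± 0.057 for Vangl1, against 0.89 ± 0.21 for Trim46, 0.39 ± 0.071 for Acp6 and 0.35 ± 0.074 for Vav3. Thus 7 were lower and 3 higher in KO, with a median of -0.60 against 0.0032 for all genes tested. By edgeR at an adjusted p under 0.05, 2 of the 10 were called in the average (Ecm1 and Flg) against 0.0338% of all genes tested, and at 1 and 2 weeks Ecm1 alone was called, against 0.00677% at either age. At 4 weeks 7 of the 10 were called against 3.23% of all genes. DESeq2 called 9 of the 10 in the average and gave Flg no adjusted p. With a replicate block the calls in the average were Ecm1 and Acp6, with sex as a covariate Ecm1 alone, and Flg was called in 6 of the 18 fits that left out 1 library. The selection used these contrasts, so nothing is read from the shares.

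**Figure D3:**
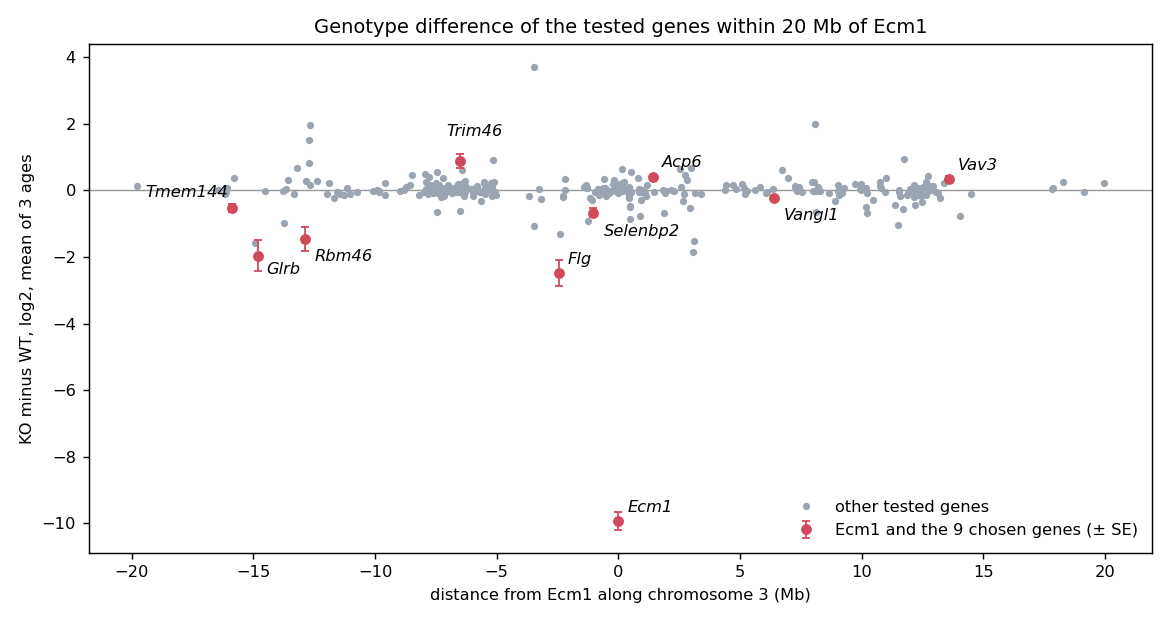
KO minus WT difference, as the mean of the 3 ages on a log2 scale (y axis), of the 352 tested genes within 20 Mb of Ecm1 against their distance from it in Mb (x axis), with Ecm1 and the 9 chosen genes in red with their SE. Ecm1 lies at -9.93, and the chosen genes lie on both sides of 0 from -2.48 (Flg) to 0.89 (Trim46).

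By their p-value in the average, the 10 genes took 10 of the first 12 places among the 352 tested genes within 20 Mb. The other two places went to S100a4 (0.90 ± 0.20), a calcium-binding protein gene, and to the cornified-envelope gene Sprr2a3 (3.70 ± 0.84). The last chosen gene inside, Rbm46 in place 12, was followed by Ilf2 (0.22 ± 0.055), Gria2 and Tspan2 (0.38 ± 0.10). S100a4, Sprr2a3, Ilf2, Gria2, Tspan2 and Hrnr were chosen for mention after their values were seen.

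The genes next to Ecm1 itself were not called at 1 or 2 weeks, where 0.00677% of all genes were called at either age. Its 12 nearest tested neighbours are Ctsk, Ctss, Golph3l, Ensa, Mcl1 and Adamtsl4 on one side and Tars2, Rprd2, Prpf3, Mrps21, Ciart and BC028528 on the other, all within 0.225 Mb. Tars2, a mitochondrial threonyl-tRNA synthetase gene that lies 407 bases from Ecm1, had an average difference of -0.081 ± 0.11, and Rprd2 one of 0.0028 ± 0.068. By edgeR 0 of the 12 were called in the average, against 0.0338% of all genes, and DESeq2 called 1 (BC028528). In the average 3 of the 12 had an unadjusted p under 0.05 by edgeR, against 9.04% of all genes. At 1 and 2 weeks 0 were called by edgeR, DESeq2 or limma. By edgeR 0 had an unadjusted p under 0.05 at these ages, against 1.33% and 1.69% of all genes. At 4 weeks 1 was called by edgeR (BC028528, 1.40 ± 0.34, adjusted p = 0.0361) and 3 by DESeq2, which added Mcl1 and Adamtsl4. At that age edgeR called 3.23% of all genes. An unadjusted p under 0.05 was held by 4 of the 12 (Ctss, Mcl1, Adamtsl4 and BC028528), against 17.1% of all genes.

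Genes at an unadjusted p under 0.05 were more frequent around Ecm1 than elsewhere in the genome at 1 and 2 weeks. At 1 week they made up 7.14% of 112 tested genes within 5 Mb, 2.00% of 150 between 5 and 10 Mb and 5.56% of 90 between 10 and 20 Mb, against 2.12% on the rest of chromosome 3 and 1.33% of all genes. At 2 weeks the shares were 9.82%, 2.00% and 11.1%, against 2.38% on the rest of the chromosome and 1.69% of all genes. At 4 weeks they were 17.9%, 18.7% and 21.1%, near the 19.3% on the rest of the chromosome and the 17.1% of all genes. For the average over ages they were 21.4%, 14% and 17.8%, against 11.4% and 9.04%. The band from 5 to 10 Mb did not share the higher frequency at 1 and 2 weeks. All these bands include the 10 genes, which were selected on these contrasts. Within 20 Mb the shares were 4.55% at 1 week, 6.82% at 2 weeks, 19.0% at 4 weeks and 17.3% in the average. With the 10 genes left out they were 3.22%, 5.85%, 17.0% and 14.9%. Among 20 chromosomes, chromosome 3, with the 10 genes included, had the highest share at 1 week, at 2 weeks and in the average. At 1 week it held 24 of 730 genes (3.29%), against 2.78% on chromosome 12. Of the 10 genes 5 were among those 24, so this rank can depend on the selection. Ranks without the 10 genes were not taken. At 4 weeks chromosome 3 had the fourth highest share. At the adjusted threshold, 22 of the 352 genes (6.25%) were called at 4 weeks, 13 higher and 9 lower in KO, of which 7 were among the 10. Within 20 Mb the 2-week share was 6.82%, and 11.2% without WT replicate 1 of 2 weeks. These shares are counts over genes that share libraries and carry no test.

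**Figure D4:**
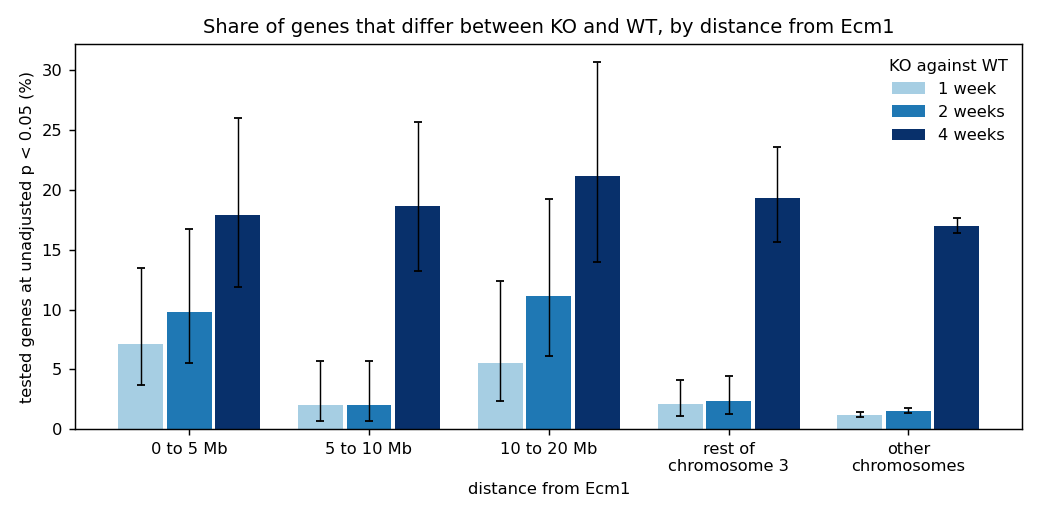
Share of tested genes at an unadjusted p under 0.05 for KO against WT (percent, y axis from 0), by distance from Ecm1 (x axis) and age (shades of blue), with Wilson 95% intervals that cover counting error only. At 1 and 2 weeks the bars within 5 Mb (7.14% and 9.82%) and from 10 to 20 Mb (5.56% and 11.1%) stand above those of the other chromosomes (1.23% and 1.54%), and at 4 weeks all 5 classes lie between 17.0% and 21.1%. The bars include Ecm1 and the 9 chosen genes, which were selected on these values. Without these 10 the share within 20 Mb was 3.22% at 1 week and 5.85% at 2 weeks.

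All 9 KO libraries lay on one side of all 9 WT libraries for 1 gene, Ecm1, which is 0.00677% of the genes tested. Within each of the 3 ages, in the same direction, KO and WT were apart in CPM for 11 genes, or 0.0745%. Of these, 4 lay within 20 Mb of Ecm1: Ecm1, Flg, Vangl1 and Krtcap2. By FPKM Vangl1 overlapped at 4 weeks. Age by age, 7 of the 10 genes were apart at 1 week (9.35% of all genes), 7 at 2 weeks (5.10%) and 8 at 4 weeks (20.9%). The selection favoured genes that separate in this way. At 2 weeks, where libraries of the same number deviated together, KO lay on 1 side of WT in all 3 same-numbered pairs for 10 of the 10 genes, Acp6, Selenbp2 and Glrb included, as it did for 30.3% of all genes.

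Age steps within a genotype were not used to choose the genes and were tested. Rbm46 and Glrb, with at most 5 and 11 reads in a 4-week library, passed the expression filter through younger libraries, for Rbm46 those of WT. The filter thus favours their falls to 4 weeks, which carry this limit. All 4 steps share the 2-week libraries of their genotype with another step. In WT from 1 to 2 weeks 2 of the 10 were called, both of them rises (Acp6 and Selenbp2), against 12.5% of all genes rising and 11.1% falling. From 2 to 4 weeks 3 rose (Selenbp2, Tmem144 and, with TMM scaling, Vangl1) and 3 fell (Vav3, Glrb and Rbm46), against 23.5% and 24.8%. In KO from 1 to 2 weeks 1 was called, the rise of Selenbp2, against 10.3% rising and 9.16% falling. From 2 to 4 weeks 5 rose (Acp6, Selenbp2, Tmem144, Trim46 and, with TMM scaling, Vangl1) and 2 fell (Vav3 and Glrb), against 18.2% and 18.7%. These tallies depend on the scaling. With library totals alone they became 1 rise (Selenbp2) and 2 falls (Vav3 and Rbm46) in WT from 1 to 2 weeks, and 2 rises (Selenbp2 and Tmem144) and 4 falls (Ecm1, Vav3, Glrb and Rbm46) from 2 to 4 weeks. In KO they became 0 from 1 to 2 weeks, and 2 rises (Acp6 and Trim46) and 3 falls (Flg, Vav3 and Glrb) from 2 to 4 weeks. Limma on log2(FPKM + 1) gave 0 rises and 2 falls (Glrb and Rbm46) in WT from 1 to 2 weeks, and 2 rises (Acp6 and Trim46) and 2 falls (Vav3 and Glrb) in KO from 2 to 4 weeks. Scaling by library totals alone lowered the median of all genes by 0.23 and 0.48 in the WT steps and by 0.22 and 0.38 in the KO steps, so rises are relative to that choice. Whether the genotype difference itself changed with age was tested as an interaction. By edgeR it was called for 0 of the 10 genes, against 0.142% of all genes, and 4 had an unadjusted p under 0.05 (Acp6, Selenbp2, Tmem144 and Rbm46), against 7.19%. DESeq2 and limma each called Rbm46. The selection favoured genes shifted at all 3 ages, so the interaction of these genes is no measure of stability.

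From library to library the 10 genes varied with correlations of both signs. Over the 18 libraries, the Pearson correlation of deviations from the 6 group means ran from -0.64 (Vav3 and Tmem144) to 0.56 over their 45 pairs, with a median of 0.086. The libraries differ in sex and composition, which these values include. The genes whose deviations were most like those of a chosen gene were Mllt11 for Glrb (r = 0.95) and Lrriq3 for Selenbp2 (r = 0.92). Pigv had r = 0.92 with Vangl1 and Gclm r = -0.92, and Colec11 had r = 0.85 with Ecm1. Each is among the 2 most extreme of all genes tested for its member and is given as a description.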

How the data were processed

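RNA of mouse kidney was sequenced in 18 libraries, 3 for each of 2 genotypes at 1, 2 and 4 weeks. The authors made an estimated count and an FPKM (fragments per kilobase and library total) for every gene and library, per the file headers. Tools named in the submitters' processing notes are HISAT2 2.1.0, StringTie 1.3.1, RSEM, Bowtie2 and fastp, without their roles. No source used here names the build. Positions come from GENCODE M21 (GRCm38), in which 21973 of 22063 identifiers were found, and promoters from RefSeq.

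The deposited counts, of which 6.86% to 8.44% per library were not whole, were rounded and fitted with edgeR 4.0.16 (R 4.3.3; quasi-likelihood F test, TMM, filterByExpr) over all 18 libraries with 6 group means and 12 residual degrees of freedom. Benjamini-Hochberg adjustment ran over 14774 genes, with calls at an adjusted p under 0.05. CPM values use TMM-scaled library sizes. Implied length is the count divided by FPKM and library total, for libraries with at least 10 counts of the gene. Counting intervals are exact at the 95% level. The depth, 14930565 to 21427764 counts, leaves a gene such as Flg with 0 to 14 reads per library.

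The 10 genes and the gene lists were chosen with earlier results of these data known. Beside the 10, the genes named are the 6 nearest tested genes on each side of Ecm1, called members of the lists, family partners, and the genes of most similar deviation; exceptions are said. The alternatives were DESeq2 1.42.0, limma 3.58.1 on log2(FPKM + 1) and log2(FPKM + 0.1), DESeq2 size factors, no filter, sex as a covariate, a replicate block, each age alone, leaving out each library and, added after seeing the data, both doubted libraries left out and library totals alone. The scripts were tested on simulated data.

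Replicate numbers were checked for pairing. At 2 weeks same-numbered WT and KO libraries deviated together across genes (r of 0.68, 0.31 and 0.46). WT replicate 2 had r = 0.35 with KO replicate 3 as well, so the numbers do not settle the pairing. Same-numbered libraries were compared as pairs there. The main fit holds no term for pairs, and a replicate block was run as an alternative. At 1 week (-0.040, 0.18 and 0.18) and 4 weeks (0.068, 0.16 and 0.0076) the numbers did not pair them.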

Additional observations from a re-analysis of the deposited data

Results flagged for a closer look

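Tspan2, a tetraspanin gene 6.99 Mb from Ecm1 that is not among the 10 genes, differed between KO and WT by different amounts at different ages. The interaction over the 3 ages jointly passed the edgeR quasi-likelihood test (adjusted p = 0.0440 over all genes). The single contrast of the 4-week with the 1-week difference, 1.18 ± 0.25 on the log2 scale, did not pass on its own (adjusted p = 0.120). Its 4-week level was 7.21 ± 1.499 CPM in WT and 17.5 ± 3.43 in KO (SD, n = 3), and it fell in WT from 2 to 4 weeks (-1.43 ± 0.18, adjusted p = 1.43e-05). It was the 1 gene named here that passed the joint test.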

How the results depend on the processing

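Of 270 alternative values of the 10 genes' average differences, 0 reversed sign and 15 moved by more than the spread between replicates. Of 432 alternative values of their 16 called age steps, 2 reversed and 28 lost the call. The reversed values were those of Vangl1 in WT from 2 to 4 weeks, -0.035 and -0.039 by limma on log2(FPKM + 1) and log2(FPKM + 0.1). Counts of genes called for KO against WT moved most. In the average over ages 5 genes became 102 with DESeq2, 19 with the replicate block, 3 with sex as a covariate and 9 and 8 with limma, and leaving out single libraries gave 3 to 82 (82 without KO replicate 1 of 4 weeks). At 1 week 1 gene became 4 with DESeq2 and 2 and 2 with limma, and 1 to 2 without single libraries; at 2 weeks DESeq2 gave 2. At 4 weeks 477 became 923 with DESeq2, 931 with the replicate block, 266 with sex as a covariate, 2 with each age alone and 117 with both doubted libraries left out (WT replicate 3 of 1 week and KO replicate 3 of 4 weeks), and 89 to 1201 without single libraries (1201 without KO replicate 1 and 89 without WT replicate 2 of 4 weeks). The interaction went from 21 genes to 185 with DESeq2, 11 with the replicate block, 8 with sex as a covariate and 9 without the doubted libraries, and 1 to 192 without single libraries. For KO from 1 to 2 weeks 2881 genes became 1469 with sex as a covariate and 1701 to 3308 without single libraries, and for WT 3481 became 2291 to 3774. Of the 10 genes, the number called in KO from 1 to 2 weeks was 0 with sex as a covariate or library totals alone, 2 without the doubted libraries and 0 to 1 without single libraries. It was 1 in WT from 1 to 2 weeks with limma on log2(FPKM + 0.1) and 4 in KO from 2 to 4 weeks with limma on log2(FPKM + 1). The share of genes within 20 Mb at an unadjusted p under 0.05 was 23.3%, 11.1% and 26.4% with the replicate block in the average, at 2 weeks and at 4 weeks. Without single libraries it was 14.3% to 23.2%, 5.34% to 11.2% and 16.5% to 26.1%. Separation within each age in place of all 9 against 9 libraries took 11 genes in place of 1, and 1 to 2 without single libraries. The cause of these moves was not tested. Flg, Rbm46 and Glrb rest on a few reads per library, so their ratios carry wide counting intervals.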
